A study of Mus musculus with 16 samples.

Results

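The immediate early genes described here are Fos, Fosb, Junb, Egr1, Egr2, Egr4, Npas4, Nr4a1, Ier2 and Arc, 10 of the 55266 mouse genes to which the transcripts of the deposited matrices could be assigned. They were chosen by name, and the counts of every transcript listed for each gene were summed to give the gene's level, so that 32 of 141102 matched transcripts enter. Bulk RNA sequencing of ribosome-depleted total RNA had been done on frontal cortex (FC) and cerebellum (Cere) of adult mice, in 4 Upf3b-KO and 4 littermate control (Ctrl) animals per the study's methods, to ask which RNAs change when Upf3b is absent. The groups are Ctrl FC (n = 4), Upf3b-KO FC (n = 4), Ctrl Cere (n = 4) and Upf3b-KO Cere (n = 4, of which 3 are used). The knockout is a null allele of an X-linked gene in the whole animal and is not restricted to neurons, and no stimulus or exact age is given for any group.

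Immediate early genes are switched on within minutes of synaptic activity, without new protein synthesis, and their mRNAs are short-lived. Most encode transcription factors: Fos, Fosb and Junb are subunits of the AP-1 dimer, the Egr proteins are zinc-finger factors, Npas4 is a neuron-specific bHLH-PAS factor and Nr4a1 is an orphan nuclear receptor. Arc differs from these, since it encodes a synaptic protein that promotes the removal of AMPA receptors, and its mRNA carries introns downstream of the stop codon, which makes it a classical natural target of NMD, the nonsense-mediated decay of RNA, in which UPF3B bridges the exon junction complex and UPF2.

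That feature of Arc is visible in the annotation of the spliced RNAs. The main Arc transcript, Arc-201 (ENSMUST00000023268, chr15:74540932-74544419, minus strand, GRCm39), is 3057 nt long in 3 exons and has its whole 396-codon reading frame in the first exon. The end of that frame is shown because the position of the stop codon, in capitals, defines the feature.
Arc-201, last coding bases and stop: gtagccagtgacaggacccagcctgaaTAG
The 2 exon junctions of Arc-201 lie 617 and 757 nt downstream of this stop codon, well beyond the 50 nt that defines a downstream exon junction (dEJ). The second annotated Arc transcript in the matrices, Arc-202, is 3 nt shorter and has the same feature (last junction at 754 nt). None of the other 9 genes has a dEJ in its main transcript. Among the main transcripts of the 16091 protein-coding genes tested across all deep libraries, 72 had one (0.447%). Npas4-203, a minor Npas4 transcript annotated as an NMD target, is the only other dEJ transcript among the 32, noted here after its values were seen, at a mean of 0.486 CPM in Ctrl FC and 0.600 CPM in Upf3b-KO FC (in counts-per-million of the library's total, CPM), and it did not differ by the test (edgeR adjusted p = 0.929).

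**Figure D1:**
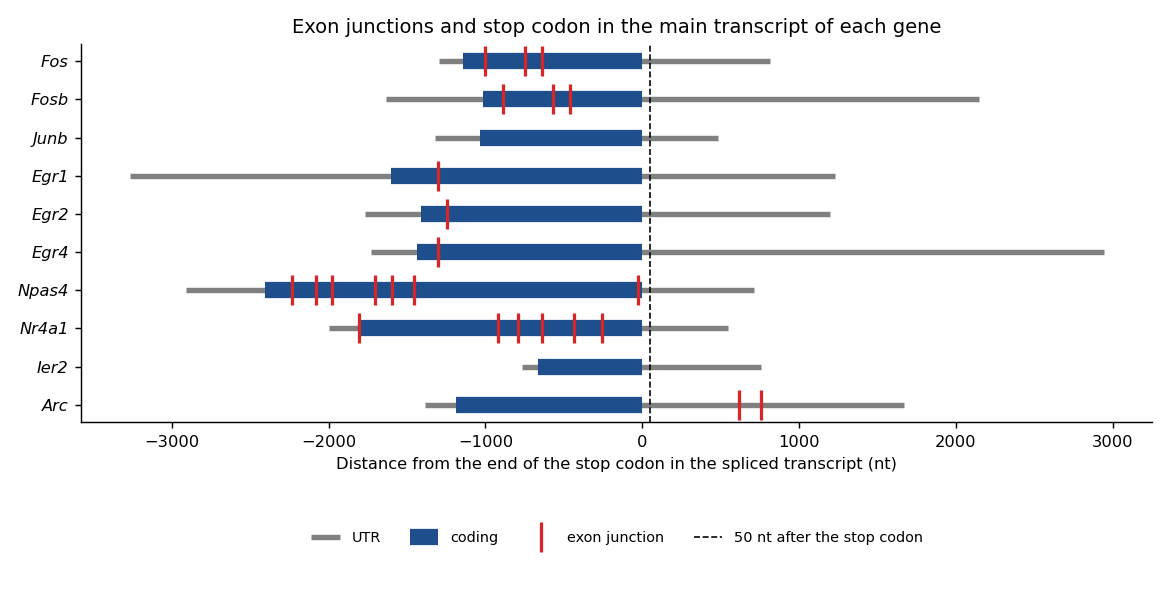
Main transcript of each of the 10 genes drawn to scale along the spliced RNA in nt, with position 0 at the end of the stop codon; thick bars are coding, thin bars are UTR and vertical red ticks are exon junctions. Arc is the one gene with junctions to the right of the dashed line at 50 nt, at 617 and 757 nt.

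The genes were compact as a group. Their main transcripts spanned a median of 4662.5 bp on the genome, against 22117 bp for all tested protein-coding genes, and 8 of 10 had at most 4 exons, against 24.4% of those genes. The 3′ UTR pentamer ATTTA, the core of AU-rich elements that shorten mRNA life, was present in 8 of 10 (not in Arc or Ier2), a share close to the 70.7% of all, and the longer element TTATTTATT was found in Fos alone (8.92% of all). In the promoter window of 250 bases before to 50 bases after the transcript start, the core of the cAMP response element, TGACG on either strand, occurred in 8 of 10 genes and in 26.3% of all tested genes. The full palindrome TGACGTCA, which holds the core on both strands, was found only in Ier2 (2.70% of all), the CArG box bound by serum response factor only in Egr2 (1.41%), and TATAAA on the gene's own strand in Fos and Junb (5.48%). Arc and Npas4 had none of these 4 motifs in the window. Sequence farther from the annotated transcript start was not searched, so a motif missing here may lie outside the window. The windows below show, in the direction of transcription on GRCm39, the core nearest upstream of the start, or the palindrome in Ier2, in capitals, and for Egr2 also the CArG box; the Egr1 window is not printed.
Fos, chr12:85520586-85520615, plus strand, 60 bases upstream: agttccgcccagTGACGtaggaagtccatc
Fosb, chr7:19044013-19044042, minus strand, 54 bases upstream: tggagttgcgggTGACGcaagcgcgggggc
Junb, chr8:85705466-85705495, minus strand, 136 bases upstream: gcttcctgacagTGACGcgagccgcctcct
Egr2, chr10:67373632-67373661, plus strand, 48 bases upstream: tatgggcagcgaCGTCAcgggtattgaaga
Egr2 CArG box, chr10:67373617-67373646, plus strand, 65 bases upstream: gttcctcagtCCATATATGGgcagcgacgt
Egr4, chr6:85490676-85490705, minus strand, 5 bases upstream: tcctgtgtccatgtttggtcatttaCGTCA
Nr4a1, chr15:101164502-101164531, plus strand, 146 bases upstream: gaaccccgcgtgCGTCAcgcgcgcagacat
Ier2, chr8:85389508-85389537, minus strand, 43 bases upstream: tggtgttgcagTGACGTCActctcagtata
Distances run from the transcript start to the first base of the motif, so that in Egr2 the CArG box and the core lie close together, 65 and 48 bases upstream.

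The 15 libraries used hold 27660078 to 35238677 expected counts each, and the remaining one, Upf3b-KO Cere replicate 1, holds 64981 and was left out (2 counts of Fos, 1 each of Arc and Nr4a1, 0 of the others). Upf3b itself was at 14.2 to 15.7 CPM in Ctrl FC and 0.229 to 0.857 CPM in Upf3b-KO FC, and at 20.9 to 23.6 CPM in Ctrl Cere and 0.617 to 0.965 CPM in Upf3b-KO Cere. Libraries of a group were very alike (edgeR common coefficient of variation beyond counting 3.99% in FC and 3.87% in Cere), and many genes passed the test in either tissue. The adjusted p-values rest on this spread, and how far it measures variation between mice was not tested. The marker genes of cell types also moved with genotype. No marker was at 0 in FC. In FC all 9 striatal medium spiny neuron markers rose, their summed level going from 187 to 201 CPM in Ctrl to 921 to 934 CPM in Upf3b-KO, all 8 choroid plexus markers rose (20.9 to 22.1 CPM against 2189 to 2243 CPM), all 6 oligodendrocyte markers rose, and all 6 astrocyte markers and all 5 red blood cell markers fell, while the 8 cortical neuron markers summed to 1747 to 1816 CPM and 1655 to 1669 CPM. In Cere all 8 granule cell markers fell (4360 to 4393 CPM against 2370 to 2384 CPM), all 6 Purkinje cell markers fell (10942 to 11100 CPM against 4370 to 4384 CPM), and all 8 choroid plexus markers (32.4 to 36.8 CPM against 1397 to 1419 CPM) and all 6 oligodendrocyte markers (6208 to 6328 CPM against 14390 to 14493 CPM) rose. There all 5 red blood cell markers rose too (1255 to 1325 CPM against 2402 to 2451 CPM), as did 6 of 7 microglial markers (183 to 188 CPM against 243 to 248 CPM), and 3 of 6 astrocyte markers rose and 3 fell (6671 to 6703 CPM against 5717 to 5774 CPM), while the 9 striatal markers summed to 415 to 425 CPM and 381 to 389 CPM, with Six3 at 0 in both groups. In bulk tissue fewer cells of a type and less RNA per cell cannot be told apart, and the part of tissue makeup in the results below was not tested.

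In FC the comparison asked which of these genes change when Upf3b is lost. 8 of the 10 rose in Upf3b-KO FC (adjusted p under 0.05), none fell, and Fosb and Npas4 did not pass the test. Of all 18218 genes tested, 28.0% rose by the same rule, 25.3% fell and 53.3% changed in either direction. Fos, Arc and Egr2 also met the study's stricter limits (adjusted p under 0.01 and over 2-fold), which 9.16% of all genes met upward. The median log2 fold change was 0.51 over the 10 genes and 0.00 over all genes, with the middle 50% of all genes between -0.17 and 0.26.

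Arc had the highest level and the most precise difference. Its level was 59.3, 61.3, 60.0 and 63.8 CPM in the Ctrl FC libraries and 172, 173, 174 and 182 CPM in the Upf3b-KO FC libraries, from 1974 to 2069 and from 5276 to 5896 counts. The lowest knockout library thus stood far above the highest control library. The fitted log2 fold change was 1.45 (SE 0.027, edgeR adjusted p = 1.30e-20), a 2.72-fold rise.

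Fos, the AP-1 subunit most used as an activity marker, rose by a like factor from a lower level. It was at 4.14, 5.03, 4.87 and 5.03 CPM in Ctrl FC and at 14.9, 14.7, 13.2 and 12.7 CPM in Upf3b-KO FC. Again no library of one group reached the other, and the log2 fold change was 1.47 (SE 0.092, edgeR adjusted p = 1.26e-11). The other AP-1 subunits moved less. Junb went from 21.8 ± 0.29 to 28.6 ± 0.66 CPM (SD, n = 4 each; log2 fold change 0.31, edgeR adjusted p = 6.04e-06). Fosb was at 2.70 to 3.22 CPM in Ctrl FC and 3.10 to 4.09 CPM in Upf3b-KO FC, groups that overlapped (log2 fold change 0.22, SE 0.14, edgeR adjusted p = 0.186).

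The 3 Egr factors rose to different extents. Egr2 was the scarcest, at 0.811, 0.697, 0.551 and 0.776 CPM in Ctrl FC (19 to 27 counts) and 2.20, 3.07, 2.80 and 2.78 CPM in Upf3b-KO FC (74 to 94 counts). Its groups stood apart and its log2 fold change of 1.86 (SE 0.21, edgeR adjusted p = 1.25e-07) was the largest of the 10. Egr1 went from 10.1 ± 0.86 to 18.6 ± 1.0 CPM (log2 fold change 0.81, SE 0.073, edgeR adjusted p = 4.51e-09), also without overlap. Egr4 differed least among the genes that passed, from 13.2 ± 0.52 to 16.1 ± 0.43 CPM (log2 fold change 0.21, edgeR adjusted p = 0.00790), and in a fit over all deep libraries together it just missed the threshold (0.20, adjusted p = 0.0539).

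Nr4a1 and Ier2 rose moderately, and Npas4 gave no detectable difference. Nr4a1 was at 31.9 to 34.6 CPM in Ctrl FC and 50.6 to 53.0 CPM in Upf3b-KO FC (log2 fold change 0.56, SE 0.039, edgeR adjusted p = 5.72e-11). Ier2, a small nuclear regulator, was at 4.26 to 5.79 CPM and 6.88 to 7.62 CPM (log2 fold change 0.46, SE 0.11, edgeR adjusted p = 0.00106). Npas4 was at 2.52 to 3.59 CPM in Ctrl FC and 2.65 to 3.89 CPM in Upf3b-KO FC, with overlapping libraries and a log2 fold change of 0.10 (SE 0.15, edgeR adjusted p = 0.621). The 8 genes that passed were also those whose knockout libraries all lay above all control libraries, which held for 33.1% of all genes tested.

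**Figure D2:**
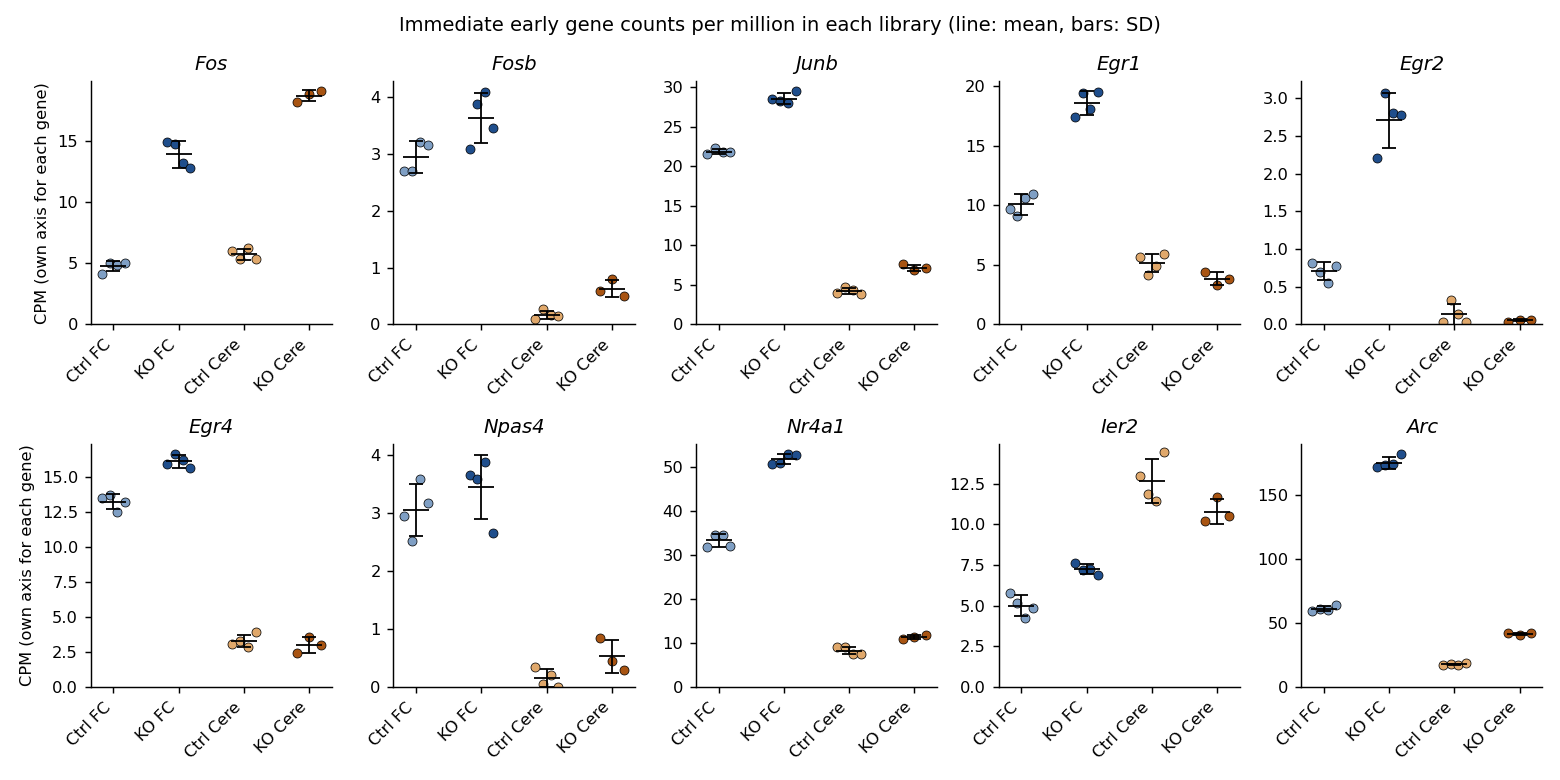
Level of each gene in CPM (y axis, linear from 0, own scale per gene) in the 15 deep libraries by group, with group mean and SD; FC is frontal cortex, Cere is cerebellum and KO is Upf3b-KO. Arc sits at 59.3 to 63.8 CPM in Ctrl FC and 172 to 182 CPM in KO FC, while the Fosb and Npas4 points of the FC groups overlap.

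In cerebellum, where 4 Ctrl and 3 Upf3b-KO libraries were compared, 9 of the genes could be tested. 6 of them (Fos, Fosb, Junb, Npas4, Nr4a1 and Arc) rose, Egr1 and Ier2 fell and Egr4 did not pass the test. Of all 17785 genes tested, 33.1% rose, 31.3% fell and 64.4% changed in either direction, and Fosb, which entered the test only through the group where it is high, is not to be counted against these shares, which leaves 5 of 8 upward. Npas4 is among these 5, and it passed the filter on low counts mostly through Upf3b-KO libraries. Fos and Arc of these 8 met the study's stricter limits, as 10.3% of all genes did upward. The median log2 fold change was 0.57 over these 8 genes and 0.01 over all genes (0.72 with Fosb).

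Fos and Arc again differed widely. Fos was at 6.02, 5.32, 6.21 and 5.35 CPM in Ctrl Cere and 18.1, 18.8 and 19.0 CPM in Upf3b-KO Cere, a log2 fold change of 1.65 (SE 0.085, edgeR adjusted p = 2.63e-12) or 3.15-fold. Arc was at 17.5, 17.6, 17.1 and 18.3 CPM in Ctrl Cere and 42.3, 40.6 and 41.9 CPM in Upf3b-KO Cere. Its groups did not overlap, with a log2 fold change of 1.19 (SE 0.047, edgeR adjusted p = 4.51e-14) or 2.28-fold. Junb rose from 3.80 to 4.76 CPM in Ctrl Cere to 6.81 to 7.57 CPM in Upf3b-KO Cere (log2 fold change 0.72, SE 0.12, edgeR adjusted p = 2.30e-05). Nr4a1 rose from 8.25 ± 0.85 to 11.4 ± 0.52 CPM (SD, n = 4 and 3; log2 fold change 0.41, SE 0.096, edgeR adjusted p = 0.00104). In these 4 genes every knockout library lay above every control library, which held for 36.3% of all genes.

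Fosb and Npas4 were close to the detection floor in cerebellum. Fosb passed the filter on low counts only through the Upf3b-KO libraries, and so had to be higher there if tested. It had 3 to 9 counts in Ctrl Cere libraries and 17 to 28 in Upf3b-KO Cere libraries (0.165 ± 0.074 against 0.629 ± 0.15 CPM, log2 fold change 1.85, SE 0.47, edgeR adjusted p = 0.00194). Npas4 had 12, 2, 6 and 0 counts in Ctrl Cere, where 3 counts or 0.108 CPM is the level that the count of 0 in replicate 4 allows, and 24, 16 and 10 counts in Upf3b-KO Cere. These groups overlapped, and the call (log2 fold change 1.67, SE 0.65, edgeR adjusted p = 0.0326) was lost without Ctrl Cere replicate 2 or 4 or without Upf3b-KO Cere replicate 2 or 3 (adjusted p 0.0539 to 0.203) and with protein-coding transcripts alone (adjusted p = 0.0960).

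The 2 genes that fell did so by small amounts and with overlapping libraries. Egr1 was at 5.65, 4.17, 4.86 and 5.87 CPM in Ctrl Cere and 4.43, 3.27 and 3.81 CPM in Upf3b-KO Cere (log2 fold change -0.47, SE 0.15, edgeR adjusted p = 0.00873), and the call was lost without Upf3b-KO Cere replicate 3 (-0.37, adjusted p = 0.0636). Ier2 was at 13.0, 11.8, 11.4 and 14.5 CPM in Ctrl Cere and 10.2, 11.7 and 10.5 CPM in Upf3b-KO Cere (log2 fold change -0.28, SE 0.093, edgeR adjusted p = 0.0140), a call lost without Ctrl Cere replicate 4 (adjusted p = 0.0590) or without Upf3b-KO Cere replicate 2 (0.0638) or 4 (0.0515). Egr4, at 2.87 to 3.90 CPM and 2.44 to 3.55 CPM, had a log2 fold change of -0.17 (SE 0.16, edgeR adjusted p = 0.374). Egr2 was not tested, with 1 to 11 counts in Ctrl Cere and 1 or 2 in Upf3b-KO Cere libraries.

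**Figure D3:**
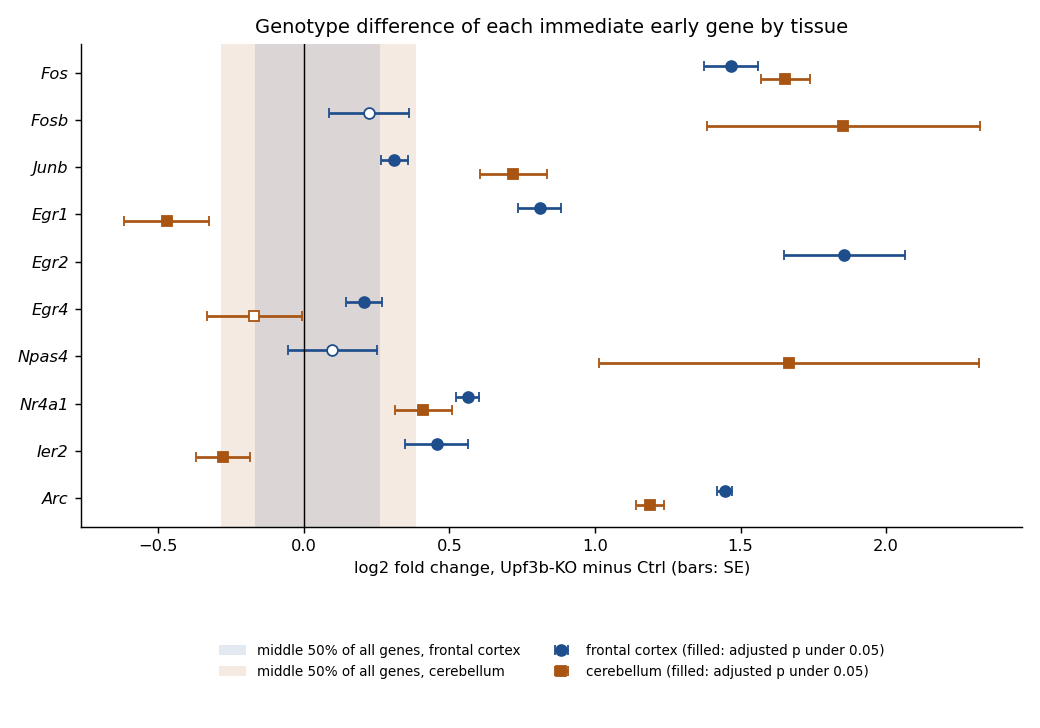
Log2 fold change of each gene between Upf3b-KO and Ctrl (x axis) in frontal cortex (blue circles) and cerebellum (brown squares) with standard errors; shaded bands hold the middle 50% of all genes tested in each tissue and open symbols missed the threshold. Fos and Arc lie far to the right in both tissues, and Egr1 and Ier2 lie right of 0 in frontal cortex and left of 0 in cerebellum.

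Whether the response to Upf3b loss differed between the tissues was tested directly, as the interaction of tissue and genotype over the 15 libraries. Both tissues came from the same mice, the labels do not say which libraries share a mouse, and the fit treats them as independent, here and between tissues. Of the 8 genes tested in both tissues other than Fosb 6 passed, 2 with a response higher in cerebellum and 4 with one lower, where 48.0% of 19831 genes passed (24.2% higher, 23.8% lower). Egr1 of these 8 met the stricter limits, as did 9.40% of all genes. For Fos the responses could not be told apart (difference 0.18 on the log2 scale, SE 0.13, edgeR adjusted p = 0.267), nor for Nr4a1 (-0.17, SE 0.085, edgeR adjusted p = 0.117; -0.21 and 0.0424 without Ctrl Cere replicate 4). Arc responded slightly less in cerebellum (-0.27, SE 0.048, edgeR adjusted p = 4.29e-05) and Junb slightly more (0.40, SE 0.10, edgeR adjusted p = 0.00175). Egr1 (-1.29, SE 0.16, edgeR adjusted p = 1.30e-07) and Ier2 (-0.74, SE 0.14, edgeR adjusted p = 1.05e-04) had differences of larger size, since they rose in FC and fell in Cere.

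The other differences rest on low counts or on single libraries. Fosb, which entered the cerebellar test only through the group where it is high (1.62, SE 0.36), and Npas4 (1.53, SE 0.55, edgeR adjusted p = 0.0244) had at most 28 counts in any cerebellar library. The Npas4 call was lost without Ctrl Cere replicate 2 or 4 or Upf3b-KO Cere replicate 2 (adjusted p 0.0546 to 0.139) and with protein-coding transcripts alone (0.120), and its value was 2.35 without Ctrl Cere replicate 1. The Egr4 call (-0.38, SE 0.15, edgeR adjusted p = 0.0415) was lost without Ctrl Cere replicate 2 or 4, Ctrl FC replicate 3 or 4, Upf3b-KO Cere replicate 2 or 4, or Upf3b-KO FC replicate 1, 2 or 3 (adjusted p 0.0512 to 0.210). Egr2 passed the filter on low counts only through its FC libraries, so its fitted difference (-3.24, and -2.24 without Ctrl Cere replicate 2) is given with no test.

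Per length, in transcripts-per-million (TPM), the order of the levels differed between the tissues. In Ctrl FC Arc was highest (48.3 ± 1.5 TPM, SD, n = 4), followed by Nr4a1 (30.5 ± 1.1) and Junb (29.2 ± 0.35), whose ranges overlapped. Then came Ier2 (7.94 ± 1.0) and Egr4 (6.82 ± 0.27), which overlapped, Fos (5.80 ± 0.37) and Egr1 (5.41 ± 0.46), which overlapped, and Npas4 (2.18 ± 0.40) and Fosb (1.90 ± 0.19), which overlapped, with Egr2 last (0.636 ± 0.075). In Ctrl Cere Ier2 led (21.0 ± 2.2 TPM), then Arc (14.6 ± 0.38), Nr4a1 (8.07 ± 0.76) and Fos (7.31 ± 0.51), of which the last pair overlapped, and Junb (5.87 ± 0.61), while Fosb, Egr2 and Npas4 were each at or below 0.122 TPM on average. Fos stood below Ier2 and Egr4 in Ctrl FC, directly after Junb in Upf3b-KO FC (16.5 ± 1.6 against 38.3 ± 0.98 TPM) and directly after Arc in Upf3b-KO Cere (22.3 ± 0.96 against 33.0 ± 0.73 TPM, n = 3).

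Between the tissues of Ctrl mice, 8 of the genes were lower in cerebellum, each over 2-fold, against 38.7% of 17521 genes that were lower by adjusted p alone and 15.9% that were lower by the stricter limits. The size ran from 2.04-fold lower for Egr1 (log2 difference -1.03) to 19.8-fold for Npas4 (-4.30), with Arc 3.60-fold (-1.85) and Nr4a1 4.17-fold lower (-2.06). Npas4, Egr2 and Fosb had at most 12 counts in a Ctrl Cere library and passed the filter through FC alone, so that they had to be lower and only the other 5 inform the count. Without Ctrl Cere replicate 1 the Npas4 difference was -5.12. Ier2 was higher in cerebellum, as were 37.8% of all genes (log2 difference 1.28, SE 0.10, edgeR adjusted p = 5.02e-10), and Fos, whose libraries did not overlap, gave 0.21 (SE 0.11, edgeR adjusted p = 0.0906), which passed with library totals in place of scaling factors (0.26, adjusted p = 0.0347) and in the fit over all deep libraries (0.24, adjusted p = 0.0261). In Upf3b-KO mice the same 8 genes were lower in cerebellum, against 36.1% of 18965 genes (Egr2 and Npas4 again passing the filter through FC), and Ier2 (log2 difference 0.56) and Fos (0.41, SE 0.070, edgeR adjusted p = 3.14e-05) were higher, as were 34.9% of all genes. The Ctrl and Upf3b-KO libraries of these comparisons are the same as those of the genotype comparisons.

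In FC 14 of the 32 transcripts could be tested and 8 rose (Arc-201, Arc-202, Fos-201, Junb-201, Egr1-201, Egr4-201, Nr4a1-201 and Ier2-201), with none lower, where 8.67% of 42318 transcripts rose and 7.68% fell. In Cere 10 could be tested and Fos-201, Arc-201, Arc-202 and Junb-201 rose, with none lower, where 12.3% of 44388 rose and 10.3% fell. The Junb-201 call was lost with a replicate block (edgeR adjusted p = 0.0940) and with the shallow library added (0.183). The stricter limits left Arc-201, Arc-202 and Fos-201 in FC (2.76% of all transcripts upward) and Arc-201 and Fos-201 in Cere (3.45%). Arc-201 was at 46.9, 36.9, 41.0 and 37.1 CPM in Ctrl FC and 111, 106, 110 and 134 CPM in Upf3b-KO FC (log2 fold change 1.44, SE 0.10, edgeR adjusted p = 4.46e-05), and Arc-202 rose alike (1.48, SE 0.23, edgeR adjusted p = 0.00311). In Cere Arc-201 went from 11.8 ± 2.2 to 27.9 ± 3.2 CPM (1.24, SE 0.16, edgeR adjusted p = 0.00149) and Arc-202 from 5.88 ± 2.4 to 13.8 ± 3.5 CPM (1.22, SE 0.36, edgeR adjusted p = 0.0492), a call lost without any 1 of 6 of the 7 libraries, Ctrl Cere replicate 2 being the exception (adjusted p 0.0582 to 0.162). The share of Arc-201 in the Arc counts was 66.5% ± 9.5 in Ctrl FC, 65.6% ± 5.5 in Upf3b-KO FC, 66.8% ± 13 in Ctrl Cere and 67.0% ± 7.9 in Upf3b-KO Cere, so the division between them did not move with genotype beyond its spread. As the 2 RNAs differ by 3 nt, few reads tell them apart, and that division is an estimate. Of the calls in FC, Egr4-201 (edgeR adjusted p = 0.0423) was lost without any single library (0.0708 to 0.112) and Ier2-201 (0.0417) without any but Ctrl FC replicate 1 (0.0747 to 0.110), and both were lost with a replicate block (0.130 and 0.109). Egr2-201 went from 0.353 ± 0.30 to 2.59 ± 0.40 CPM in FC without overlap and yet missed the threshold (2.80, SE 0.88, edgeR adjusted p = 0.0688), which it passed without Ctrl FC replicate 4 (2.39, adjusted p = 0.0119) and with DESeq2 (2.82, adjusted p = 7.42e-04). Fosb-201, Fosb-205 and Npas4-201 overlapped between the genotypes in FC (adjusted p 0.865, 0.340 and 0.622).

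Nr4a1 has a pair of main transcripts with separate starts. Nr4a1-201, from the start nearer the coding exons (chr15:101164660-101172680), was at 15.1, 13.7, 15.9 and 24.2 CPM in Ctrl FC and 34.3, 32.8, 40.1 and 36.7 CPM in Upf3b-KO FC, without overlap (log2 fold change 0.999, SE 0.17, edgeR adjusted p = 0.00560). Nr4a1-202, which starts upstream at position 101151980, was at 16.8, 20.8, 18.7 and 7.90 CPM in Ctrl FC and 16.3, 18.1, 12.9 and 15.9 CPM in Upf3b-KO FC, with overlap (-0.09, SE 0.28, edgeR adjusted p = 0.900). The Nr4a1-201 share was 52.1% ± 16 in Ctrl FC and 69.4% ± 4.7 in Upf3b-KO FC, with the split of Ctrl FC replicate 4 opposite to that of the other Ctrl FC libraries. The difference between the responses of the 2 transcripts was not tested. In Cere Nr4a1-201 went from 5.75 to 8.66 CPM on average without overlap and missed the threshold (0.59, SE 0.19, edgeR adjusted p = 0.0669), which it passed with DESeq2 (adjusted p = 0.00933) and in the fit over all deep libraries (0.0463). That last fit also called Egr1-201 lower in Cere (-0.43, adjusted p = 0.0387).

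**Figure D4:**
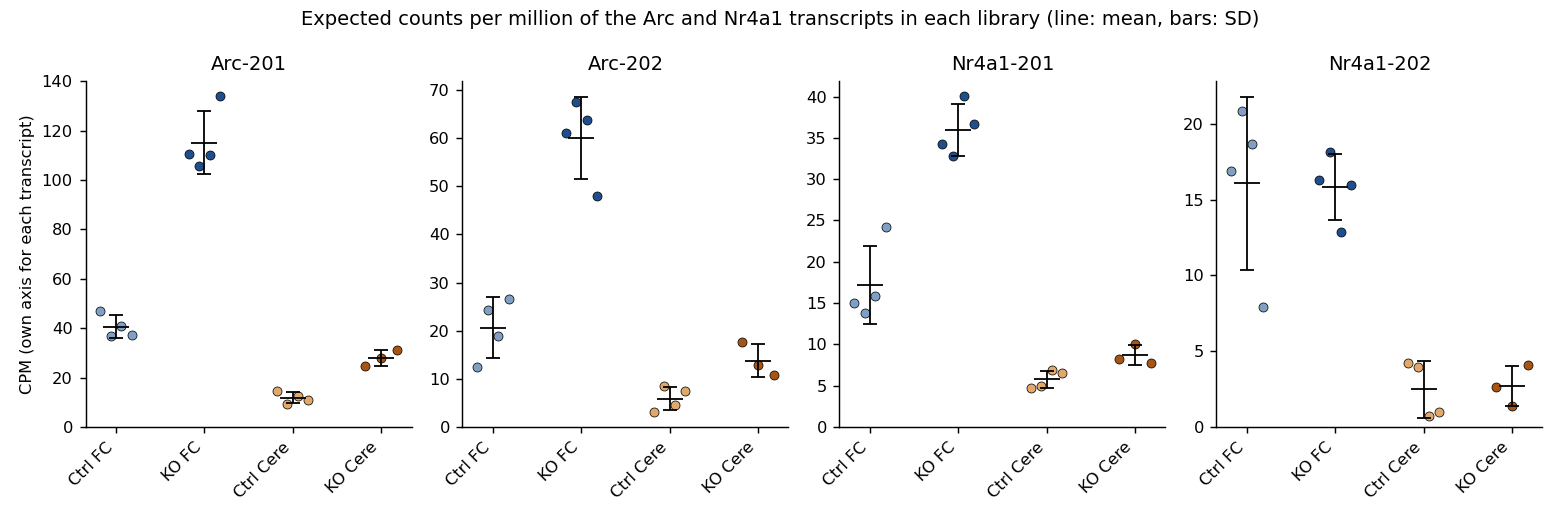
Level in CPM (y axis, linear from 0, own scale per transcript) of the Arc and Nr4a1 main transcripts in the 15 deep libraries by group, with group mean and SD. Both Arc transcripts are higher in KO than in Ctrl in both tissues, and Nr4a1-202 overlaps between genotypes in FC at 7.90 to 20.8 CPM in Ctrl.

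Other genes of the pathway moved in both directions. Of 38 other activity-induced genes, 37 could be tested in either tissue. In FC 14 rose and 9 fell, where 28.0% of all genes rose and 25.3% fell, and the median log2 fold change was 0.16. Inhba, an activin subunit, rose (1.03, SE 0.10, edgeR adjusted p = 3.04e-08), and so did the postsynaptic scaffold gene Homer1 (0.25, edgeR adjusted p = 3.41e-08), while the AP-1 genes Jun (-0.38, edgeR adjusted p = 1.47e-10) and Fosl2 (-0.70, edgeR adjusted p = 2.07e-10) fell. In Cere 13 rose and 11 fell, where 33.1% of all genes rose and 31.3% fell, with a median of 0.04. The neuropeptide precursor Vgf rose from 16.1 to 94.7 CPM (2.51, SE 0.040, edgeR adjusted p = 6.50e-20), the granin Scg2 (0.89) and the G-protein regulator Rgs2 (1.27) rose, and the ERK phosphatase Dusp5 fell (-0.84, edgeR adjusted p = 4.72e-14). By the stricter limits 1 of the list, Inhba, rose and none fell in FC, where 9.16% of all genes rose and 1.06% fell so far. In Cere 6 rose and 1, Atf3, fell (-1.09), where 10.3% of all genes rose and 2.86% fell so far, Atf3 being named after its value was seen.

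The 17 factors and kinases that act on immediate early promoters gave 6 higher and 6 lower in FC (28.0% and 25.3% of all genes), with a median of 0.01. The kinases Camk4 (0.38, edgeR adjusted p = 2.58e-09) and Rps6ka5 (0.44, edgeR adjusted p = 7.03e-09) rose and the ERK kinase Mapk3 (-0.25) fell. In Cere 11 of 17 fell and 1, Mapk3, rose (0.29), where 31.3% of all genes fell and 33.1% rose, with a median of -0.47. Among those that fell were Mef2a (-0.70), the CREB coactivator Crtc1 (-0.91), Elk1 (-1.15) and Camk4 (-0.77, edgeR adjusted p = 3.64e-15), in the same libraries in which the granule and Purkinje cell markers fell. Of 6 proteins that bind AU-rich elements, 4 fell in FC, where 25.3% of all genes fell (Hnrnpd -0.47, Khsrp -0.58, Zfp36l2 -0.32, Elavl1 -0.11) and none rose. In Cere 4 fell, where 31.3% of all genes fell (Tia1 -0.47, Khsrp -0.49, Elavl1 -0.26, Hnrnpd -0.18) and Zfp36l2, named after its value was seen, rose (0.19).

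**Figure D5:**
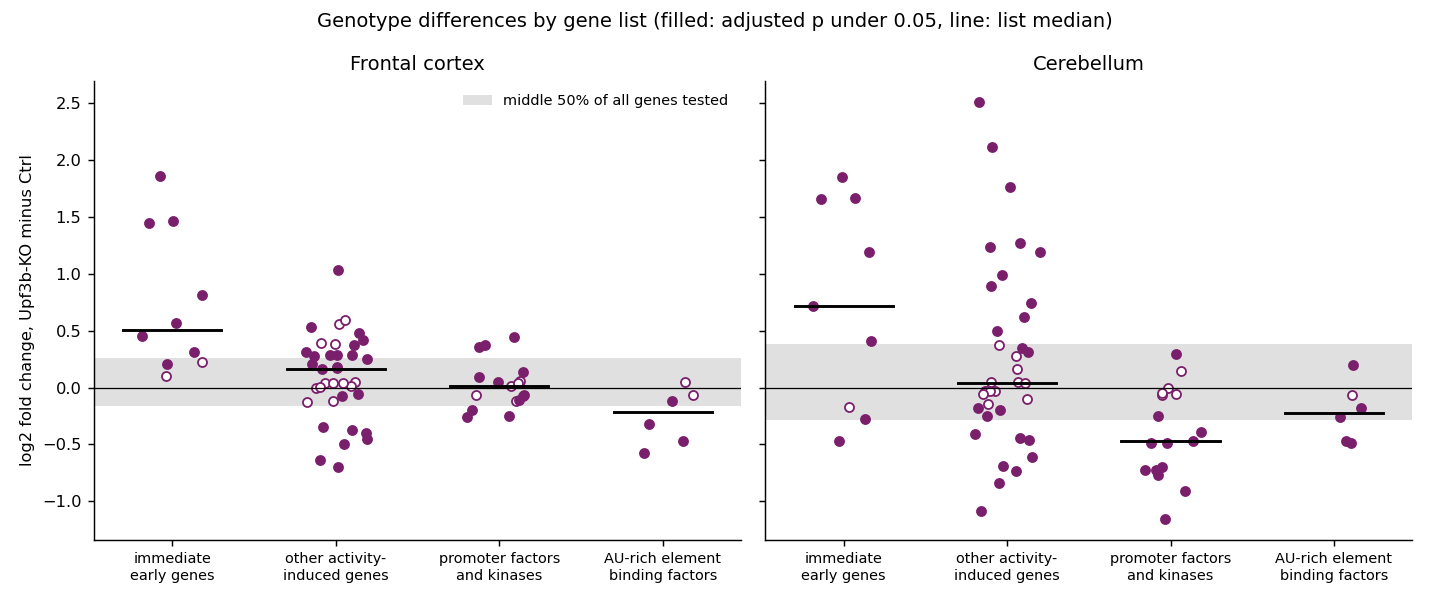
Log2 fold change between Upf3b-KO and Ctrl (y axis) of every tested gene of 4 lists in frontal cortex and cerebellum; filled points passed the adjusted threshold, horizontal lines are list medians and the grey band holds the middle 50% of all genes tested. The immediate early genes have medians of 0.51 and, with Fosb, 0.72, and the promoter factors and kinases have medians of 0.01 and -0.47.

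The genes with the most similar pattern over the 4 groups were found by the root mean square distance between centred log2 group means, over the 11978 genes whose mean level reached 5 CPM. Near to the mean pattern of the 10 genes were Rasgef1b (distance 0.090), Bin2 (0.093), Adcy5 (0.095) and Rai14 (0.11). Adcy5, an adenylyl cyclase abundant in the striatum, was at 41.0 CPM in Ctrl FC, 68.4 in Upf3b-KO FC, 16.1 in Ctrl Cere and 26.1 in Upf3b-KO Cere. Nearest to Arc were Kif27 (0.16), Pde1b (0.24), Kcnk4 (0.25), 1700030J22Rik (0.27) and Pdzd2 (0.29). Pde1b, a calcium-dependent phosphodiesterase also abundant in the striatum, was at 115 CPM in Ctrl FC, 231 in Upf3b-KO FC, 25.9 in Ctrl Cere and 81.7 in Upf3b-KO Cere. These distances describe 4 group means and carry no test.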

How the data were processed

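Expected counts per transcript were deposited by the authors in 1 matrix per tissue, made per the labels and the study's methods with STAR 2.5.2b on GRCm39 and RSEM, with no scaling. The members and lists were chosen with earlier results of these data known. Transcripts (142435) were matched by identifier to the GENCODE M39 annotation (1333 unmatched), summed per gene and rounded. Genes with enough counts (edgeR filterByExpr, minimum count 10, total 15) were tested with edgeR 4.0.16 in R 4.3.3 (TMM scaling, quasi-likelihood F test, Benjamini-Hochberg over all features tested), so fitted fold changes differ from ratios of CPM, which divide by library totals. Depth limits precision below about 3 counts per library (0.085 to 0.108 CPM). Named are all members, their transcripts of at least 1 CPM in a group, up to 4 changed genes of smallest adjusted p per list and tissue, and 5 genes of nearest pattern, of which some are not reported here. TPM used annotated lengths. Replicate pairs differed by 2.19 to 2.68 times counting noise, so no library was a copy. The labels do not say whether replicate numbers pair the samples, and the main tests used no pairing. Whether reads were counted by strand is not given in the sources used here, and Junb (with Prdx2), Egr2, Egr4 and Nr4a1 overlap other annotated genes. Alternatives were DESeq2 1.42.0, other scaling, filters and thresholds, a replicate block, 1 fit over all deep libraries, protein-coding transcripts alone, the shallow library added and each replicate left out.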

Additional observations from a re-analysis of the deposited data

Results flagged for a closer look

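The test of the difference between tissues passed for Arc, Egr1, Egr4, Junb, Npas4 and Ier2, where 48.0% of all 19831 genes passed. The log2 differences (cerebellum minus frontal cortex) were -0.27 for Arc, -1.29 for Egr1, -0.38 for Egr4, 0.40 for Junb, 1.53 for Npas4 and -0.74 for Ier2. The Egr4 and Npas4 calls were lost without single libraries (edgeR adjusted p up to 0.210 and 0.139). Npas4 rests on low cerebellar counts, as does Fosb (1.62). Fosb entered the cerebellar test only through the group where it is high and is not counted here.

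Among 60 groups of 4 libraries examined, a library stood far from the others in 2, where chance gives about 1 in 20. Fos-201 was at 3.79 CPM in Ctrl FC replicate 1 and 4.78 to 4.87 CPM in the other 3, and Egr2-201 was at 0.0624 CPM in Ctrl Cere replicate 3 and 0 in the others, which is below the 3-count floor.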

How the results depend on the processing

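Of the recomputed fold changes of the genes and their transcripts, 1133 kept their direction and side of the threshold, 56 lost significance, 8 gained it and 7 turned sign. The study's stricter limits, with Fosb included in Cere and Fosb and Egr2 in the interaction, left 3 genes in FC, 3 in Cere and 3 in the interaction, and 3 transcripts in FC and 2 in Cere. Upward, 9.16% of all genes met these limits in FC and 10.3% in Cere. In the interaction 9.40% met them in either direction. Of all transcripts 2.76% in FC and 3.45% in Cere met them upward. A fold limit of 1.5, with the same genes included, left 4 genes in FC, 5 in Cere, 5 in the interaction and 5 transcripts in FC. Over all settings 1861 to 10684 of all genes changed in FC, 2339 to 12142 in Cere and 1864 to 9928 in the interaction. The main test gave 9711, 11453 and 9526. Among the transcripts of Cere, 2 rose with a replicate block and 2 with the shallow library added, in place of 4 (Arc-202 and Junb-201 were lost in both). In FC 6 rose with the block and also with no filter on low counts, in place of 8 (Egr4-201 at adjusted p 0.130 and 0.155, Ier2-201 at 0.109 and 0.136). The replicate block gave the same count of genes in FC and Cere (8 each) and 7 in the interaction, Fosb and Egr2 included here and in the counts that follow, where Egr4 was lost (adjusted p = 0.0587). Same-numbered libraries correlated at -0.10 to 0.15 in their deviations and differently numbered ones at -0.11 to 0.12. With so few libraries per group these values cannot tell whether equal numbers mark a shared mouse or batch. Leaving out each library in turn gave 8 genes in FC, 6 to 8 in Cere, 6 to 8 in the interaction, 9 in Ctrl and 10 in Upf3b-KO between tissues, and 6 to 7 transcripts in FC and 3 to 4 in Cere. Of all genes it gave 9220 to 9475, 10790 to 11182, 9070 to 9333, 13174 to 13370 and 13001 to 13147 in the same order. Of all transcripts it gave 5483 to 5897 in FC and 7755 to 8966 in Cere. The counts between tissues include Npas4 and Egr2, which passed the filter through FC, and in Ctrl also Fosb.

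The sign changes were all in transcripts that had not passed, without single libraries. In FC Nr4a1-202 ranged from -0.32 to 0.059 (positive without Ctrl replicate 2), Npas4-203 from -0.19 to 0.64 (negative without Ctrl replicate 2 and, at -0.18, without Upf3b-KO replicate 2) and Fosb-201 from -0.72 to 0.012 (positive without Upf3b-KO replicate 2). In Cere Nr4a1-202 ranged from -0.30 to 0.52 (negative without Upf3b-KO replicate 4 and, at -0.17 and -0.15, without Ctrl replicates 3 and 4). The cause was not tested. With library totals in place of scaling factors the median of all genes went from 0.00 to 0.08 in FC and from 0.01 to 0.06 in Cere. At this depth the cerebellar levels of Fosb, Npas4 and Egr2 carry wide errors.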
